A study of Homo sapiens with 32 samples.

Results

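H3K9me3 regions over pseudogenes were taken from the 2 region lists of the series, 1 for LOVO and 1 for RKO cells. A region was a member if it lay on chromosomes 1 to 22, overlapped a gene annotated in RefSeq (GRCh38.p14) as pseudogene or transcribed pseudogene by at least 1 bp, and had its midpoint in no protein-coding or long noncoding RNA (lncRNA) gene body. By this rule 241 of 14804 LOVO regions (1.63%) and 508 of 21931 RKO regions (2.32%) on these chromosomes were members, 749 of the 37078 regions in both lists. A further 122 LOVO and 252 RKO regions overlapped a pseudogene but had their midpoint in a coding or lncRNA gene and were left out.

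LOVO and RKO are established human colon adenocarcinoma cell lines. The series holds 32 chromatin immunoprecipitation (ChIP-seq) libraries in 16 groups of 2: in each line, cells labelled shControl or shMETTL3 with H3K9me3 ChIP or input, and cells labelled shControl or OLA with METTL3 ChIP or input. METTL3 is the enzyme that deposits m6A on messenger RNA. The antibodies were a rabbit polyclonal against H3K9me3 and a rabbit monoclonal against METTL3. Each list names no library, replicate or condition, so the effects of shMETTL3 and OLA and the METTL3 ChIP were not analysed, and the results set LOVO beside RKO. With 1 list per line there was no test and no spread between cultures: intervals below are exact Clopper-Pearson 95% intervals, which cover counting error only and treat neighbouring regions as independent. The depth behind the lists is unknown.

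Pseudogenes are gene copies that no longer make the product of their parent. Processed pseudogenes arise when LINE1 proteins copy a messenger RNA back into DNA, so they lack introns and sit far from the parent; duplicated pseudogenes arise with the DNA around them and often lie near it. H3K9me3 marks heterochromatin, and it is known for covering repeats and the clusters of KRAB zinc finger genes, whose proteins recruit H3K9 methylation to transposable elements.

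A member region can reach past its pseudogene into the start of a neighbouring gene, and the sequences below show the gene starts that lay wholly inside one. Of 33725 RefSeq promoter windows (250 bases before to 50 after a gene start, chromosomes 1 to 22 other than 8), 4 lay wholly inside an RKO member and 0 inside a LOVO member. A mature miRNA inside a member was found in RKO as well. None of these 5 RKO regions overlapped a LOVO region. Most RKO regions did not: 24.0% of RKO members and 23.8% of all RKO regions overlapped one. Promoters are printed 5′ to 3′ on the strand of the gene with each CG dinucleotide in capitals, and the miRNA with its seed, bases 2 to 8, in capitals. They come from RefSeq, build GRCh38.p14.
LOC105373743, chr2:173296835-173297134, minus strand: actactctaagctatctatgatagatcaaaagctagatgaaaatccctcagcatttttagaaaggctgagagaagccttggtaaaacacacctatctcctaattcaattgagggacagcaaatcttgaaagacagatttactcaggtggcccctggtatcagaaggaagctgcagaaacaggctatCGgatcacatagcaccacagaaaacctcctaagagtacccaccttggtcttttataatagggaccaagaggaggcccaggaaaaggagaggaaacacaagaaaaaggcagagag
EFCAB10, chr7:105581444-105581743, minus strand: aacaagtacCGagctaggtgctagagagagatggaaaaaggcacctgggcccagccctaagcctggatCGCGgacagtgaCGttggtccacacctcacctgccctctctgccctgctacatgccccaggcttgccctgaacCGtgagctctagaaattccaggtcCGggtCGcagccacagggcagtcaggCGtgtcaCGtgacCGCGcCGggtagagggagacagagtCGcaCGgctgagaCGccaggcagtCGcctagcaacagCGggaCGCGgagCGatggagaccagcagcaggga
OR10A5, chr11:6845433-6845732, plus strand: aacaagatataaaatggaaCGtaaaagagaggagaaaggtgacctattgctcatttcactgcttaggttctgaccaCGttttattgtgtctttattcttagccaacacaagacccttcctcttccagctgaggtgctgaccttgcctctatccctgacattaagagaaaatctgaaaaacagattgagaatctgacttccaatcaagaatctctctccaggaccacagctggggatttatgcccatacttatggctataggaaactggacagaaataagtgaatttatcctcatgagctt
CBR1, chr21:36069774-36070073, plus strand: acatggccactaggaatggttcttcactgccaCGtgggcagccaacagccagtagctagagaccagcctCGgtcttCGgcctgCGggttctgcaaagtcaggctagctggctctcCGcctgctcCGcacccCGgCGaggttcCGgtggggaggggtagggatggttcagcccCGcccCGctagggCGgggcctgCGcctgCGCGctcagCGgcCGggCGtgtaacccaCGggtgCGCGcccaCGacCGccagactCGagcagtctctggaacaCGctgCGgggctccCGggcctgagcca
hsa-miR-4468, chr7:138123803-138123820, plus strand: aGAGCAGAaggaugagau

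The 4 promoters differ in their CG content. CBR1, which encodes a carbonyl reductase, had 27 CG in 300 bases, and 28.2% of all 35116 promoter windows in the table hold at least as many. EFCAB10, named for an EF-hand calcium-binding domain, had 20, and 41.2% of windows hold at least as many. OR10A5, an olfactory receptor gene, had 2 (89.0% of windows hold at least as many) and LOC105373743 had 1 (96.0%), against a median of 14 over all windows. The CBR1 window lay in the region from 36065953 to 36070366 on chromosome 21, which is a member through RNU6-992P, a copy of the U6 spliceosomal RNA. The EFCAB10 window lay in the region from 105581313 to 105586182 on chromosome 7 over YBX1P2, a copy of the gene of the RNA- and DNA-binding protein YBX1. The LOC105373743 window lay in a 5541 bp region over the ribosomal protein copy RPS2P18, the OR10A5 window in a 2.001 kb region over LOC100131597, and hsa-miR-4468 in a region of the same width over RCC2P3. The EFCAB10 and hsa-miR-4468 regions lie in a long stretch of chromosome 7 where the RKO list is dense.

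More pseudogenes lay under members in RKO than in LOVO, and most of them were met in 1 line. Of 15332 pseudogenes on the 22 chromosomes, 215 (1.40%, interval 1.22 to 1.60) lay under a LOVO member and 466 (3.04%, 2.77 to 3.32) under an RKO member. Any region of the list, members or not, met 334 (2.18%) in LOVO and 710 (4.63%) in RKO. Both lines had a member over 100 pseudogenes, which is 46.5% of those marked in LOVO and 21.5% of those marked in RKO, and in 87 of the 100 a LOVO and an RKO region shared bases within the body. A member of LOVO alone was found over 115 pseudogenes and of RKO alone over 366. Counted by region rather than by pseudogene, 35.5% of all LOVO and 23.8% of all RKO regions overlapped the other list. The 100 pseudogenes marked in both had a median body of 14.6 kb, beside 696.5 bp over all pseudogenes, and a long body is met more easily. Pseudogenes that overlap no coding or lncRNA gene are those the midpoint condition can least exclude, and among these 8438 the shares were 2.04% in LOVO and 5.02% in RKO.

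Over bases, pseudogenes were not covered more than the chromosomes around them. Regions of any kind covered 1.16% of the summed pseudogene bases in LOVO and 2.32% in RKO, while the lists covered 1.38% and 2.43% of the 22 chromosomes. Long pseudogenes were met more often. Of 5807 pseudogenes up to 500 bp, LOVO members met 0.551% and RKO members 1.77%, and of 904 over 10000 bp, 10.7% and 13.8%. The share of bases covered showed no such rise, with 1.10% in the shortest and 1.28% in the longest class in LOVO, and 2.99% and 2.001% in RKO. Transcribed pseudogenes, with a median length of 9788 bp, were marked more often (6.48% of 1172 in LOVO and 9.81% in RKO) than those annotated as pseudogene only, with a median of 631 bp (0.982% and 2.48% of 14160). Above 10000 bp the shares were 12.1% and 16.1% of 579 transcribed pseudogenes, and 8.31% and 9.85% of 325 others, with intervals that overlapped in both lines.

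Zinc finger pseudogenes, copies of genes whose proteins mostly bind DNA and repress transposable elements, were marked most often of the families with at least 90 members. In LOVO 18 of 99 (18.2%, interval 11.1 to 27.2) lay under a member and in RKO 13 (13.1%, 7.18 to 21.4), beside 1.40% and 3.04% of all pseudogenes. Regions covered 7.88% of their bases in LOVO and 8.90% in RKO, beside 1.16% and 2.32% over all pseudogenes; this measure, unlike the count, is taken per base. Few were covered through most of the body: with at least 50% under members, 4.04% were left in LOVO and 3.03% in RKO. Both lines marked 8 of them, LOVO alone 10 and RKO alone 5, and the intervals of the lines overlap. The symbol pattern also took in 2 copies of ZBTB8OS, which encodes no zinc finger protein; 1 of them, ZBTB8OSP2, was marked, in RKO alone. Without them the shares were 18 of 97 (18.6%) in LOVO and 12 of 97 (12.4%) in RKO, with 4 in RKO alone.

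**Figure D1:**
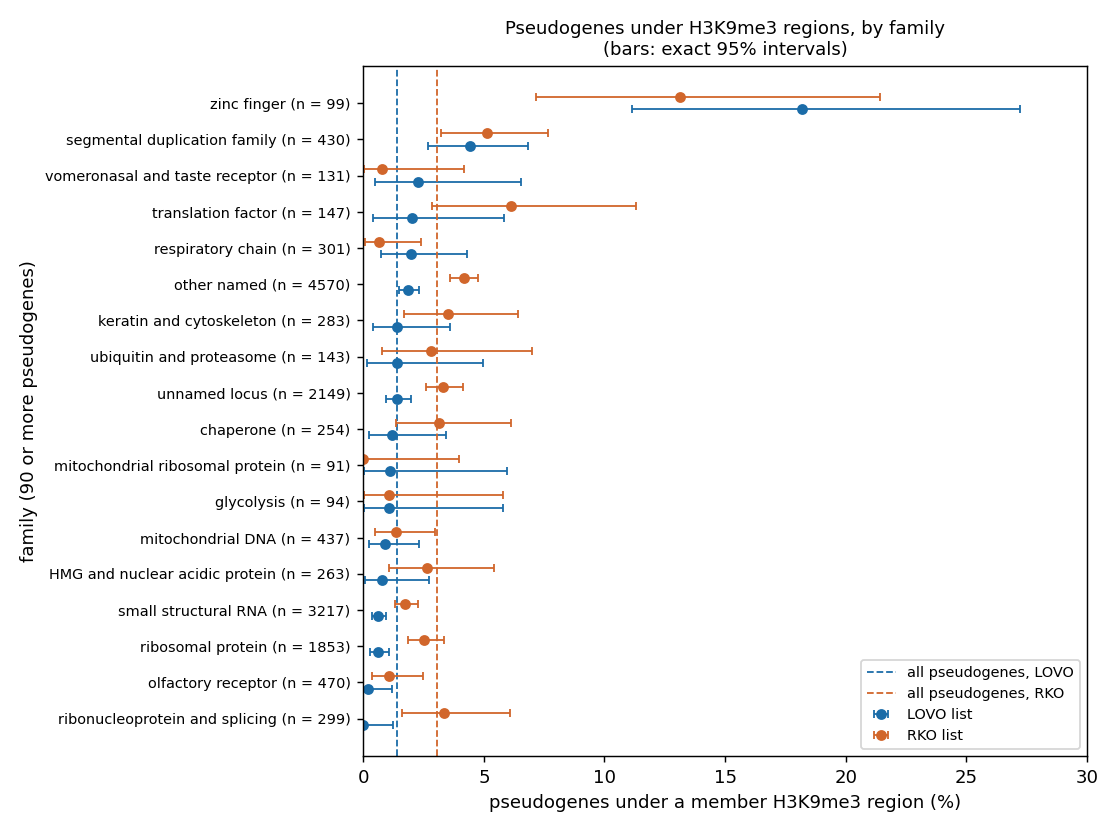
Share of the pseudogenes of each family (vertical axis, families of 90 or more with their number) that lay under a member H3K9me3 region (horizontal axis, percent); points are the LOVO and RKO lists, bars exact 95% intervals and dashed lines all pseudogenes. Zinc finger pseudogenes stand highest in both lists, at 18.2% and 13.1%, followed by segmental duplication families at 4.42% in LOVO and translation factors at 6.12% in RKO.

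The 4 zinc finger pseudogenes with most bases summed over both lists were marked in both lines. ZNF767P, on chromosome 7 from 149547154 to 149624790, had 2 LOVO members over 8.70 kb and 4 RKO members over 22.4 kb, with 7588 bp in common. It lies in a dense segment of the RKO list (defined below), as does the region from 149568498 to 149583552, the second widest RKO member. ZNF252P on chromosome 8 (144973589 to 145002899) was covered over 10.96 kb by LOVO and 8.55 kb by RKO regions and lies at the edge of another such segment. ZNF37BP on chromosome 10 (42513510 to 42552870), 21.3 kb from ZNF33B, had 3 members in each list over 6.003 and 12.4 kb, but only 2.001 kb were common to both. ZNF300P1 on chromosome 5 had 2.16 kb in LOVO and 8.91 kb in RKO, which is 55.2% of its body.

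Other members of this family were marked in 1 line. ZNF271P on chromosome 18 (35290272 to 35310766) had 9.06 kb under 2 LOVO members, 44.2% of its body, and no RKO region; in LOVO alone this is the second highest value of the family. ZNF204P on chromosome 6 had 3.78 kb and ZNF962P on chromosome 13 had 2.58 kb in LOVO, again with no RKO region. ZNF788P on chromosome 19 (12092297 to 12114753), 10.7 kb from ZNF844, had 6.31 kb in RKO and none in LOVO, and ZNF702P had 4.95 kb in RKO alone. At the other end, ZNF285BP was a member by 1 bp. Across both lists, 5 LOVO and 10 RKO members overlapped their pseudogene by 50 bp or less.

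**Figure D2:**
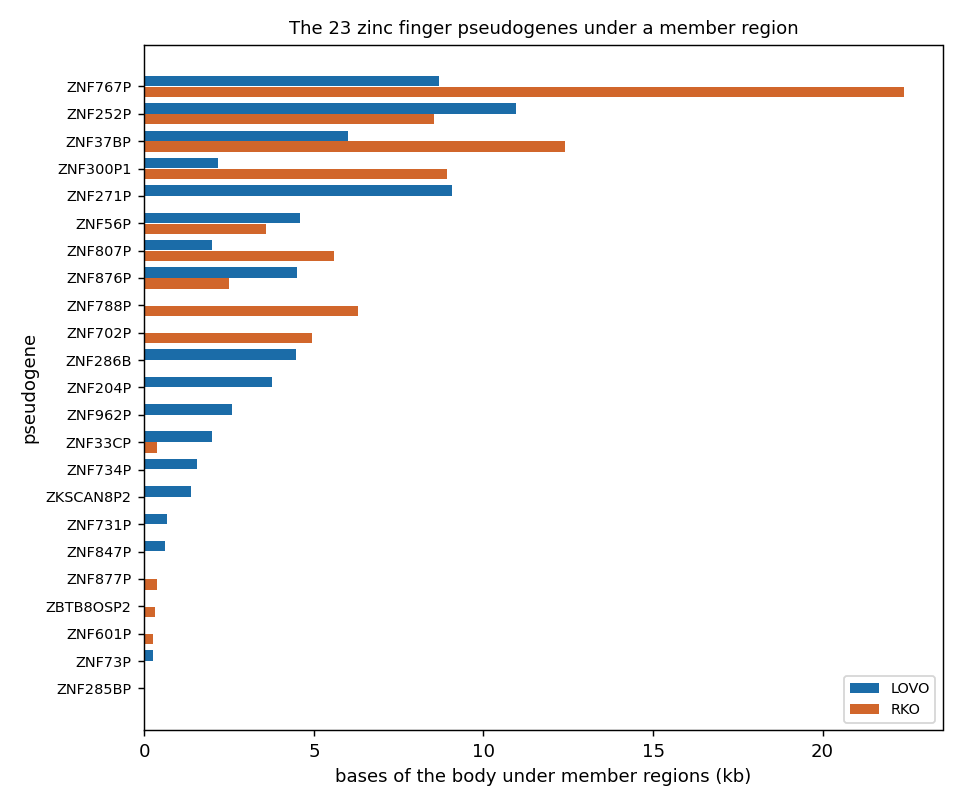
Bases of each of the 23 marked pseudogenes of the zinc finger family, ZBTB8OSP2 included (vertical axis), under LOVO and RKO member regions (horizontal axis, kb). ZNF767P reaches 22.4 kb in RKO, ZNF252P 10.96 kb in LOVO, and ZNF271P has bars in LOVO only.

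Zinc finger genes were also frequent neighbours of the other members. Within 100 kb of a protein-coding ZNF gene lay 19.1% of LOVO members and 10.6% of RKO members, beside 4.89% and 3.59% of all regions. Leaving out the 25 LOVO and 23 RKO members over a zinc finger pseudogene, 26 of 216 (12.04%) and 35 of 485 (7.22%) still lay that near. Pseudogenes themselves lie there too: 789 of those outside the family (5.18%) were within 100 kb of a ZNF gene. Of these, 3.68% were marked in LOVO (interval 2.48 to 5.24), against 1.16% (0.995 to 1.35) of the 14444 elsewhere. In RKO the shares were 4.18% (2.90 to 5.82) and 2.91% (2.64 to 3.19), with intervals that overlapped. Base coverage followed the same order, 2.85% near ZNF genes against 0.911% elsewhere in LOVO, and 2.98% against 2.14% in RKO. Elsewhere the LOVO share was below that of the longer RKO list, and near ZNF genes the intervals of the lines overlapped. An example is the cluster of 4 LOVO members over LOC100418986, LOC100418989, LOC100418991 and LOC100418992 within 44.0 kb of chromosome 19 (20869573 to 20913576). The family was set by symbol, so loci named only by a number, as these 4 are, counted as outside it. Their parents were not determined, and zinc finger copies among them would not have been recognised.

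Ribosomal protein pseudogenes, mostly processed copies and the largest coding family here, were marked less often than pseudogenes as a whole in LOVO. LOVO members lay over 11 of 1853 (0.594%, interval 0.297 to 1.06) and RKO members over 47 (2.54%, 1.87 to 3.36), and 5 were marked in both. They are short, with a median of 532 bp, and regions covered 0.772% of their bases in LOVO and 3.23% in RKO, so in RKO their coverage was above that of all pseudogenes while their count was not. The dense segments held 19 of the 47 (40.4%), beside 36.9% of all pseudogenes marked in RKO. RPL6P8 on chromosome 3 (160579267 to 160585787) had 2 RKO members over 4.51 kb, and RPL12P45 on chromosome 1 had 2.72 kb in RKO. RPS23P9, 3.61 kb from the Fc receptor gene FCGR3B on chromosome 1, lay whole (1.59 kb) under a LOVO region alone. RPS6P1 on chromosome 12 (12850957 to 12851751) lay whole under a region of each list, 12848950 to 12852809 in LOVO and 12850234 to 12852234 in RKO. Adding copies of RPSA, a ribosomal protein whose copies the symbol pattern missed, left both shares within their intervals.

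Other families made mostly of processed copies are read beside the same shares of all pseudogenes, 1.40% in LOVO and 3.04% in RKO. Copies of ribonucleoprotein and splicing genes had an RKO member in 10 of 299 (3.34%) and a LOVO member in none, where the interval reaches 1.23%; LOVO regions that are not members met 3. HNRNPKP4, HNRNPA1P23 and YBX1P2 lay whole under RKO regions. Translation factor copies were marked in 9 of 147 in RKO (6.12%, 2.84 to 11.3) and 3 in LOVO (2.04%), and the 3 were also marked in RKO. Among them EIF4EP2 on chromosome 17 (49423287 to 49424905), a copy of the gene of the cap-binding protein, lay under one of the widest LOVO members, 7497 bp from 49418373 to 49425869, and under an RKO member of 6746 bp. Among keratin and cytoskeleton copies LOVO members met 4 of 283 (1.41%) and RKO members 10 (3.53%), among chaperone copies 3 of 254 (1.18%) and 8 (3.15%), and among copies of HMG and nuclear acidic proteins 2 of 263 (0.760%) and 7 (2.66%). The interval of each of these shares holds that of all pseudogenes in the same list. Glycolysis copies had 1 of 94 in each list. Of 301 respiratory chain copies, 6 (1.99%, 0.735 to 4.29) had a LOVO member and 2 (0.664%, 0.0806 to 2.38) an RKO member, with none in both; with any region of the lists the counts were 6 and 7, so the order of the lines turned. NDUFB8P3 on chromosome 11 (2.56 kb) and COX16P1 on chromosome 19 (2.001 kb) led them, both in LOVO alone. All of these intervals are wide and those of the lines overlap in each family of this paragraph except that of ribonucleoprotein genes.

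Copies of small structural RNAs, such as the U6 spliceosomal RNA, 7SL of the signal recognition particle and 7SK, formed the largest family with 3217 pseudogenes and a median length of 110 bp. LOVO members lay over 20 (0.622%, 0.380 to 0.959) and RKO members over 56 (1.74%, 1.32 to 2.25), beside 1.40% and 3.04% of all pseudogenes. Per base the order was the other way. Regions covered 1.57% of their bases in LOVO and 3.09% in RKO, beside 1.16% and 2.32% over all pseudogenes. All members of both lists are at least 2.001 kb wide, and copies this short were mostly met whole: 20 of the 20 in LOVO and 51 of the 56 in RKO lay entirely under members. Both lines marked 12 of them. Of 1208 U6 copies LOVO marked 7 (0.579%) and RKO 21 (1.74%); of 652 7SL copies they marked 7 (1.07%) and 10 (1.53%), and of 283 7SK copies 3 (1.06%) and 8 (2.83%). 5S ribosomal RNA copies were marked in 1 of 482 and 7. None of 73 Y RNA copies was marked in either list. RN7SKP192 on chromosome 11 (59706057 to 59706383) lay under 59704639 to 59707203 in LOVO and 59705699 to 59708600 in RKO, and RN7SKP174, RN7SL122P and RN7SL824P were also covered whole in both.

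Families spread by segmental duplication, which copies stretches of DNA with their genes, were marked in 19 of 430 (4.42%, 2.68 to 6.81) in LOVO and 22 (5.12%, 3.23 to 7.64) in RKO, above the share of all pseudogenes in both. Their bodies are long, with a median of 3778 bp, and the regions covered 0.947% and 1.48% of their bases, below the value for all pseudogenes. TPTE2P5 on chromosome 13 (40796985 to 40921750) had 4.002 kb in LOVO and 10.3 kb in RKO. SLC9B1P5 on chromosome 16 (32388131 to 32436365) had 3 RKO members over 13.6 kb and no LOVO region. GTF2IRD1P1 on chromosome 7 was marked alike, with 4.51 and 4.60 kb. Copies of the transcription factor gene DUX4 were picked out after their values were seen. An RKO member lay over 4 of 46 (8.70%) and a LOVO member over none, beside 3.04% and 1.40% of all pseudogenes. The 4 were DUX4L26, DUX4L9, DUX4L37 and DUX4L44, on 4 chromosomes.

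Counts were small among receptor, immune and mitochondrial copies, read beside 1.40% of all pseudogenes in LOVO and 3.04% in RKO. Olfactory receptor pseudogenes were marked in 1 of 470 (0.213%, 0.00539 to 1.18) in LOVO and 5 (1.06%, 0.346 to 2.47) in RKO, below the share of all pseudogenes in both lists. OR7E156P on chromosome 13 had 2.001 kb in RKO, and OR2Q1P and OR13C7 lay whole under RKO regions. Of 437 pseudogenes named for mitochondrial genes, LOVO members met 4 (0.915%) and RKO members 6 (1.37%). A single LOVO region met 3 of them and a single RKO region 4, so these are not counts of separate insertions. With any region the counts were 7 and 6, which turns the order, and the bases covered were 1.28% and 0.577%. MTATP6P14 and MTCO2P14, neighbours on chromosome 1 from 106802755 to 106804327, both lay whole under the same RKO region. Of 131 vomeronasal and taste receptor copies LOVO marked 3 (2.29%, 0.475 to 6.55) and RKO 1 (0.763%, 0.0193 to 4.18). HLA and MIC copies had 1 of 27 (3.70%, 0.0937 to 19.0) in each list, HLA-DPB2 in LOVO and HLA-W in RKO. No immunoglobulin or T cell receptor pseudogene of 39 was marked in either list, where the interval reaches 9.03% in each.

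The pseudogenes covered most in both lines lay on several chromosomes, and few had a parent by the symbol rule given below. Their bodies ran from 18.7 to 128.7 kb, and ranking by bases favours long ones. Ranked by the smaller of their LOVO and RKO bases, LOC124902904 led, on chromosome 12 from 27100129 to 27198785, with 4 members in each list over 10.1 and 14.4 kb and 8172 bp in common. It lies in a dense segment. ZNF767P and ZNF252P followed, then LRRC78P on chromosome 3 (141663199 to 141721074) with 3 members in each list over 7.97 and 7.89 kb. SEPTIN7P13 on chromosome 1, a copy of a septin cytoskeleton gene, lay under 1 region per list, 224008997 to 224016566 in LOVO and 224004681 to 224016033 in RKO. RASA4DP on chromosome 7, a copy of a Ras GTPase-activating gene, had 7.12 and 13.3 kb. AFG3L1P on chromosome 16, a copy in the family of mitochondrial AAA proteases, was covered from 89991842 to 89997700 in LOVO and 89991946 to 89998294 in RKO. For TNRC18P2 on chromosome 7 the ends nearly coincided, 63574917 to 63580411 in LOVO and 63574850 to 63580362 in RKO. TPRXL on chromosome 3 had 4.54 and 8.97 kb with no base in common, which is 1 of 13 pseudogenes marked by both lists at separate places. Of the 100 pseudogenes marked in both, RKO covered more bases in 57, LOVO in 23, and 20 were equal; 33 lie in a dense segment.

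Among pseudogenes with LOVO members and no RKO region, PDZPH1P on chromosome 5 (103430533 to 103526618) had the most bases, 9.48 kb under 3 members. ZNF271P followed with 9.06 kb, OFCC1 on chromosome 6 with 6.77 kb in a body of 506.6 kb, and TPTEP1 on chromosome 22 with 5.93 kb. SULT1C5P, 12.3 kb from the sulfotransferase gene SULT1C2, had 4.002 kb, as did LOC107986665, SEPTIN14P1 and LOC124900424. None of the 10 lay in a dense segment of either list, beside 19.1% of all pseudogenes marked in LOVO. Of RKO pseudogenes with no LOVO region, SLC9B1P5 led, followed by the ankyrin repeat copy ANKRD19P on chromosome 9 (92809611 to 92838457, 8.08 kb) and ANTXRLP1 on chromosome 10 (46219025 to 46269608, 7.97 kb). SIMC1P1 had 6.95 kb, GYG1P1, a copy of a glycogenin gene, 6.74 kb, ZNF788P 6.31 kb and TSSC2 6.201 kb. ANKRD19P, GYG1P1 and PRSS47P (5.70 kb) lay in dense segments, 3 of the 10, beside 36.9% of all pseudogenes marked in RKO. The largest LOVO value of all belonged to OVOS2P on chromosome 12 (31111652 to 31201235), named here after its value was seen, with 11.7 kb in LOVO and 2.79 kb in RKO.

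**Figure D3:**
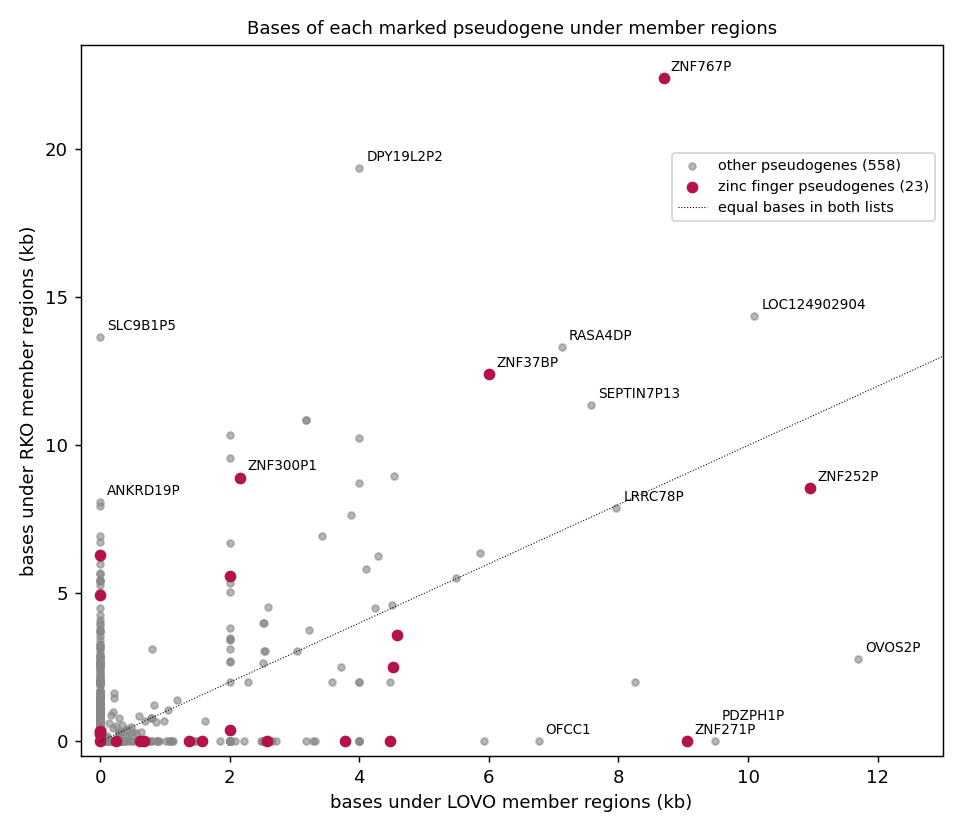
Bases of each of the 581 marked pseudogenes under LOVO (horizontal axis, kb) and RKO (vertical axis, kb) member regions; each point is a pseudogene, red points are zinc finger pseudogenes and the dotted line marks equal bases. Most points lie on an axis, marked in 1 line only, and ZNF767P, DPY19L2P2 and LOC124902904 reach the highest RKO values.

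Members were shared between the lines at 43.2% in LOVO and 24.0% in RKO, and how this compared with the whole lists depended on dense segments. An RKO region overlapped 104 of 241 LOVO members by at least 1 bp (43.2%, interval 36.8 to 49.7), beside 35.5% of all LOVO regions and 30.7% (29.6 to 31.7) of the other regions whose midpoint is in no coding or lncRNA gene. A LOVO region overlapped 122 of 508 RKO members (24.0%, 20.4 to 28.0), beside 23.8% of all RKO regions and 22.3% (21.4 to 23.1) of the others outside genes. Most partners were members as well, 96 of 104 and 94 of 122. Over bases, 37.6% of the LOVO member length and 17.3% of the RKO member length lay in a region of the other list. With members in dense segments left out, the LOVO share was 35.3% (28.5 to 42.5), beside 32.6% of all LOVO regions there, and the RKO share 24.4% (19.7 to 29.5), beside 27.8%; both whole-list values lie inside the members' intervals.

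Shared members were wider than the rest, and members as a whole were wider at the median than all regions of their list unless dense segments were left out in LOVO. The median width was 2.504 kb in LOVO and 2.887 kb in RKO, against 2.001 and 2.587 kb over all regions. Outside dense segments the LOVO medians were 2.001 kb for members and for all regions alike, and the RKO medians 2.834 and 2.542 kb. A wider region also meets a pseudogene, or a region of the other list, more easily. Exactly 2.001 kb, the commonest width in both lists, was held by 48.1% of LOVO and 30.5% of RKO members (54.6% and 38.05% of all regions). Shared LOVO members had a median of 2.57 kb and the others 2.001 kb, and in RKO the medians were 3.81 and 2.60 kb. The widest members of LOVO covered 8284 bp over LOC100421074 on chromosome 5 (140756648 to 140764931), 21.2 kb from PCDHA1, and 8061 bp over ZNF731P on chromosome 1. In RKO they covered 15953 bp over IMPDH1P3, a copy of a guanine nucleotide synthesis gene, on chromosome 7 (138426722 to 138442674), 15055 bp over ZNF767P and 13868 bp over LARP1BP1 on chromosome 4 (63337164 to 63351031). All 5 of the widest LOVO members and 4 of the 5 in RKO were shared, the exception being a 12447 bp region over MIPEPP1 on chromosome 7.

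**Figure D4:**
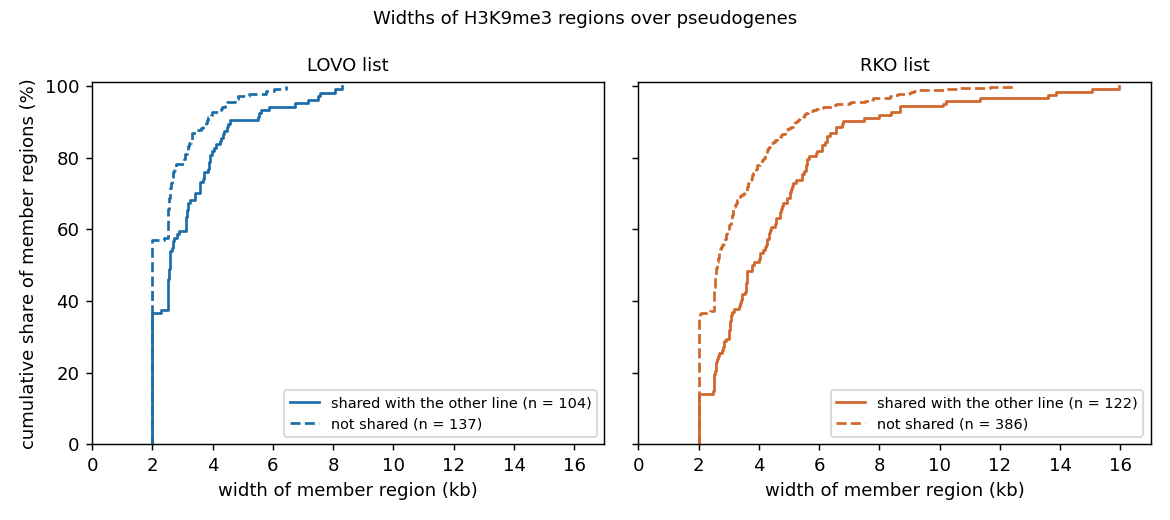
Cumulative share of member regions (vertical axis, percent) up to a given width (horizontal axis, kb), for members that overlap a region of the other line (solid) and those that do not (dashed), in LOVO (left) and RKO (right). Shared members lie to the right, with medians of 2.57 against 2.001 kb in LOVO and 3.81 against 2.60 kb in RKO.

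Parents of marked pseudogenes mostly carried no region of their own, like the parents of pseudogenes in general. A parent was a protein-coding gene whose symbol is left when the final P and digits are taken off, which 7199 pseudogenes had. LOVO members lay over 93 of these from 84 parents, and 13 of the parents (15.5%, interval 8.51 to 25.01) had a LOVO region in the body, beside 11.9% of the 2006 parents of any pseudogene. In RKO 220 pseudogenes came from 182 parents, of which 26 (14.3%, 9.55 to 20.2) had an RKO region, beside 17.3%. Marked parents were long, with medians of 102072 bp in LOVO and 91645 bp in RKO against 17826 and 13697 bp for the rest. On the chromosome of their parent lay 24 of the 93 (25.8%) and 36 of the 220 (16.4%), beside 760 of all 7199 (10.6%). Lengths were not matched here. Pseudogenes over 10000 bp were marked at 10.7% in LOVO and 13.8% in RKO, those up to 500 bp at 0.551% and 1.77%. Parent and copy were both marked in both lines for ALMS1, the gene of Alström syndrome, the ubiquitin ligase gene HERC2, PARG, whose product removes poly(ADP-ribose), and ZNF300, among others. With at least 10% of the parent body required, 5.95% of parents were left in LOVO and 4.40% in RKO.

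Several parents had more than 1 marked copy, read beside 1.40% of all pseudogenes marked in LOVO and 3.04% in RKO. Of all 581 marked pseudogenes, 366 were marked in RKO alone. HNRNPA1, a splicing factor gene, led with 5 of 71 copies, all in RKO alone, and no region in either list lay in HNRNPA1 itself. The translation elongation factor gene EEF1A1 (4 of 44) and the ribosomal protein gene RPL12 (4 of 47) had marked copies in RKO alone. Dense segments held 2 of the marked HNRNPA1 copies, 2 of EEF1A1 and 1 of RPL12. Of 84 copies of PPIA, the cyclophilin A gene, 2 were marked in LOVO and 3 in RKO, 1 of them in both. Next came parents with 3 marked copies, taken in order of position: RPL31, RPSA, RPL37, the beta tubulin gene TUBB, the beta-glucuronidase gene GUSB and IMPDH1. Of 19 GUSB copies LOVO members met 2 and RKO members 1, and 3 of 9 IMPDH1 copies were marked, in RKO alone. None of these 10 parents had a region of either list in its own body. Few parents did: 11.9% of all 2006 parents had a LOVO region and 17.3% an RKO region. Of others with 3, named after their values were seen, ENPP7, which encodes an intestinal sphingomyelinase, had 3 of 15 copies marked in LOVO and 1 in RKO. ENPP7 copies have a median length of 44439 bp and GUSB copies 20241 bp. Of all pseudogenes over 10000 bp, 10.7% were marked in LOVO and 13.8% in RKO. All 3 copies of the trypsinogen gene PRSS3 had an RKO member, 2 of them in dense segments. PRSS3 itself had 2.001 kb under an RKO region.

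The dense segments of a list held many RKO members and few LOVO members. Dense segments are runs of at least 4 neighbouring 5-Mb bins with at least 2 times the median number of regions. RKO segments held 173 of its 508 members (34.1%, beside 37.7% of all its regions) and LOVO segments 23 of 241 (9.54%, beside 14.1%). The RKO segment of chromosome 7 from 90 to 160 Mb held 52 RKO and 14 LOVO members, that of chromosome 8 from 40 to 145 Mb 51 and 3, and that of chromosome 9 from 85 to 115 Mb 32 and 6. The LOVO segment of chromosome 12 from 10 to 50 Mb held 14 LOVO and 13 RKO members. Outside the segments of either list 190 LOVO and 316 RKO members were left, and 2.22% of the pseudogenes there were marked in RKO. Neither input nor copy number values were at hand, so mark and DNA dosage cannot be told apart.

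The part of the regions that were members differed between chromosomes. Members made up 7 of 116 LOVO (6.03%) and 7 of 133 RKO regions (5.26%) on chromosome 22. The shares were 4.46% and 5.76% on chromosome 19. On chromosome 21 they were 3 of 111 (2.70%) and 9 of 97 (9.28%). Lower shares were 0.746% and 1.28% on chromosome 2 and 1.61% and 1.60% on chromosome 18. Chromosome 20 had 2 of 177 (1.13%) and 10 of 442. Of the 7 LOVO members on chromosome 22, 4 formed a cluster of 26.4 kb over TPTEP1 and its neighbours. The members of RKO on chromosome 21 were 9, of which 6 formed a cluster of 102.5 kb over CDRT15P9 and TEKT4P2 on the short arm (9030051 to 9132527). Other clusters joined unrelated copies, as on chromosome 9 of RKO, where 5 members over ANKRD19P, EEF1DP2, SPATA31B2P and SNX18P2 lay within 70.3 kb (92828133 to 92898419). On chromosome 10, 5 LOVO members over LOC441666, CCNYL2 and ZNF37BP spanned 206.7 kb. Another member lay within 100 kb of 85 LOVO and 179 RKO members. The median distance to the nearest protein-coding gene was 32.1 kb in LOVO and 27.5 kb in RKO, against 89.7 and 50.7 kb for the other regions outside genes. Near-identical copies share sequence, and the sources used here do not say what was done with reads that match several places.

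**Figure D5:**
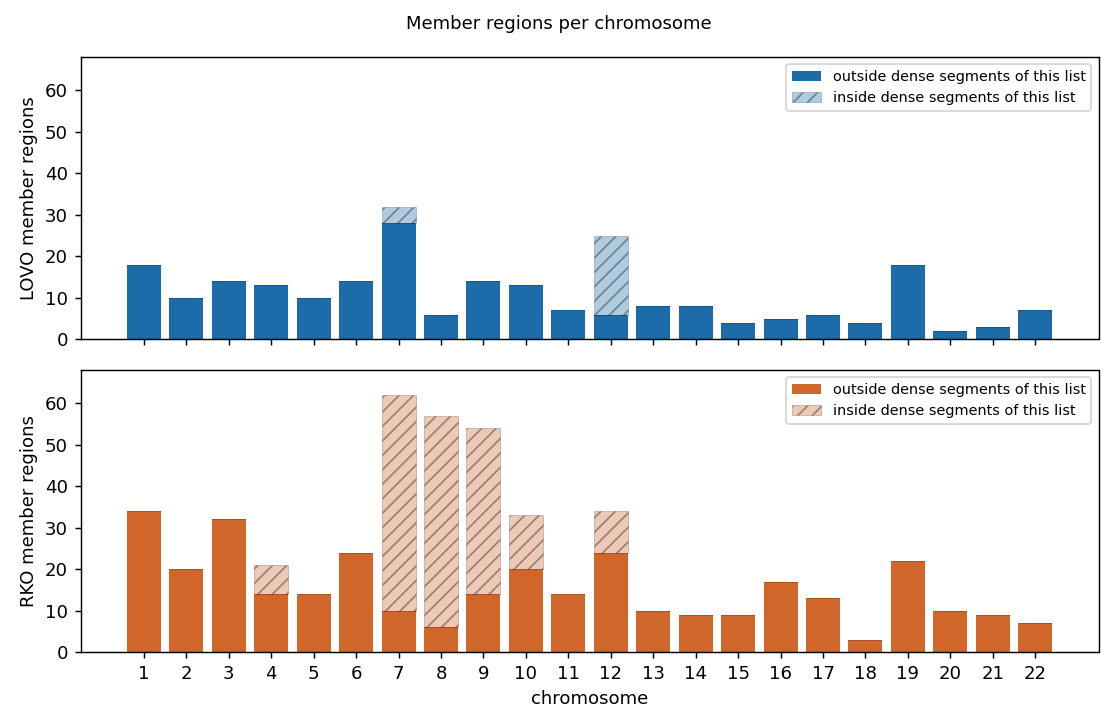
Number of member regions (vertical axes) on each chromosome (horizontal axis) in the LOVO list (top) and the RKO list (bottom), split by whether they lie in a dense segment of that list (hatched). In RKO chromosomes 7, 8 and 9 stand highest, with most members in dense segments, and in LOVO chromosome 7 with 32.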

How the data were processed

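The values used were 2 deposited H3K9me3 region lists, 1 per line, in hg38. The authors deposited only positions per region (chromosome, first and last base), with no score. Per the submitters' processing notes the tools were HOMER 4.11, Picard 2.26.0, Bowtie2 2.4.2, Trim Galore 0.6.6 and FastQC 0.11.9, with no role or order. The sources used here do not give peak settings, use of inputs, pooling or depth.

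Starts were shifted to count from 1. Gene bodies came from the RefSeq gene table of GRCh38.p14. Its entries on unplaced and alternate scaffolds carry chromosome labels, so 676 of them (189 pseudogenes), recognised by their place in the table's order, were left out. Families were set by symbol patterns. Members, lists and families were chosen with earlier results of these data known. No test was planned or run. Named pseudogenes were the 10 with most bases under members in both lines, in LOVO alone and in RKO alone, up to 4 per family, the 10 parents with most marked copies, and the 5 widest members per list. The interval code was tested on simulated data, with 0 of 80 comparisons differing from brute force. The code ran on Python 3.11.15 with scipy 1.17.1, pandas 2.3.3, numpy 2.4.6 and matplotlib 3.10.9.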

Additional observations from a re-analysis of the deposited data

How the results depend on the processing

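No paired analysis was possible because the lists carry no replicate and no result comes from a test. Member counts were 241 in LOVO and 508 in RKO. With the region's midpoint inside the pseudogene they were 149 and 246, with only regions wider than their list's median 125 and 294, with no midpoint condition 363 in LOVO (760 in RKO), and without dense segments 316 in RKO. The share of members shared was 43.2% in LOVO and 24.0% in RKO. It was 27.4% and 14.2% with an overlap of 50% of both widths, 35.3% and 28.5% with lists of equal size, 35.3% in LOVO without dense segments, and 29.5% in RKO with regions within 5 kb joined. Joining gave median widths of 2559 and 3589 bp. The share of pseudogenes marked (1.40% and 3.04%) was 0.496% and 1.66% with at least 50% of the body covered, 2.18% and 4.63% with any region, 2.04% and 5.02% for pseudogenes outside gene bodies, and 2.22% in RKO without dense segments. For ribosomal protein copies (0.594% and 2.54%) it was 1.13% and 3.99% with any region, 1.19% and 4.99% outside gene bodies, and 1.76% in RKO without dense segments. Zinc finger copies fell to 4.04% and 3.03% with 50% of the body covered, beside 0.496% and 1.66% of all pseudogenes. These shares rest on few of the 99 copies, and no interval is given for them. Parents fell to 5.95% and 4.40% with 10% of the body. The restriction to pseudogenes outside gene bodies, RPSA copies, ZBTB8OS copies left out (18.6% and 12.4% of zinc finger copies) and scaffold entries (243 and 510 members) were chosen after seeing the data.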

Other observations

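Some marked loci that RefSeq lists as pseudogenes carry gene symbols, and all 25 marked pseudogenes of this kind were looked up after the values were seen. ABO, the blood group glycosyltransferase locus on chromosome 9 (133250401 to 133275201), had 3.03 kb under an RKO region and none in LOVO. GCNT7, FER1L4, ADAM5 and BAGE2 were likewise marked in RKO alone, with 3.15, 2.61, 4.002 and 2.90 kb under members. HLA-DPB2, a class II pseudogene beside HLA-DPB1, had 2.65 kb in LOVO alone, and HLA-W, a class I pseudogene, 0.690 kb in RKO alone. HYDIN2, TMPRSS11BNL and DEFB122 each had a 2.001 kb stretch in LOVO alone. Only TPRXL and UBE2L1 among the 25 had members of both lists.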
